A study of Mus musculus with 7 samples.

Results

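Solute carriers are membrane proteins that move sugars, amino acids, organic ions, carboxylates, metals and nucleotides across the plasma membrane and the membranes of organelles. The genes described here are those whose symbol starts with Slc, Slco included and Slc25a1 left out, and that are listed in the deposited table of liver expression values. There were 24 such genes on 25 of the table's 1615 rows, out of 385 solute carrier genes with a named probe on the array. Of the 24, 22 encode carriers, and 2 (Slc4a1ap and Slc7a6os) are only named after one. The 385 include 6 genes only named after a carrier, these 2 among them. All are counted as solute carriers in the shares below. The genes were chosen by values of the diet comparison, because the table lists only rows at which chow and high-fat diet (HFD) did not overlap. Their diet differences are therefore given as a description, without a test.

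The samples were livers of male C57/BJ mice aged 26 weeks. From 6 weeks of age the mice received either chow from Provimi Kliba (4 samples) or the HFD D12331 of ResearchDiets (3 samples), for 20 weeks. Each RNA was hybridised to its own 1-colour Agilent array. The labels do not say which animal a sample came from, and precision is limited by how few arrays there are. All levels below are log2 values of the table unless scanner signals are named, and all differences are HFD minus chow on that log2 scale.

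Hepatocytes take up bile acids, drugs and other organic ions from blood through Slc22, Slco and Slc10 proteins, sugars through Slc2 proteins and amino acids through several families. Slc13 and Slc16 proteins carry citrate, succinate, lactate, pyruvate and related acids, which feed or drain the pathways of fat and glucose synthesis. Slc25 proteins connect the cytosol with the mitochondrial matrix, and Slc35 proteins supply the Golgi with nucleotide sugars.

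Across the table's rows, which are not independent replicates, each of the 3 HFD scanner files followed its own column at r = 0.99991 or higher (Pearson). The 4 scanner files labelled chow followed theirs with r of 0.581 to 0.589, so the diet differences rest on the table's chow columns alone. All 20 hepatocyte markers were well above background on all 3 HFD arrays, while 7 of them, albumin (Alb) and Apoa1 among them, were not well above background in any file labelled chow. All HFD scans share 1 day, and for the table's chow values no scan day is known here, so scan day and diet cannot be told apart. HFD replicate 1 had a mean negative control signal of 46.9, against 29.9 and 30.8 on the other HFD arrays. The HFD columns had medians of 9.68 to 9.85 and the chow columns of 9.55 to 9.56, a mean shift of 0.21. The differences below were not corrected for it. In rows listed for their diet difference, whether this shift is an offset common to all genes cannot be told.

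Of the 24 genes, 15 were higher and 9 lower in HFD, and 12 lay at least 2-fold apart, 8 of them higher and 4 lower. Of all named genes of the table, 19.7% were at least 2-fold higher and 15.4% at least 2-fold lower. The listed genes were 6.23% of the solute carriers on the array, beside 5.65% of all 20659 named genes (3.08% listed as higher and 2.57% as lower). Among the 1167 named genes of the table, 54.6% were higher in HFD and 35.1% lay at least 2-fold apart. These shares follow from how the table was made and say nothing particular of solute carriers. The median absolute difference of the 24 genes was 0.998, beside 0.83 for all named genes of the table. The smallest difference among them was -0.41 for Slc7a6os, and the smallest of any named gene in the table was 0.33. Chow values of genes outside the table were not analysed here. All 24 genes were well above background on all 3 HFD arrays, beside 63.3% of all named genes on the array, listed or not. Of all solute carriers on the array 67.5% passed this call. Of the 13086 named genes that passed it, 11974 were not in the table. Nearly all of the table's 1167 named genes thus passed it on some probe, so the call is not taken as a trait of these 24 genes.

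**Figure D1:**
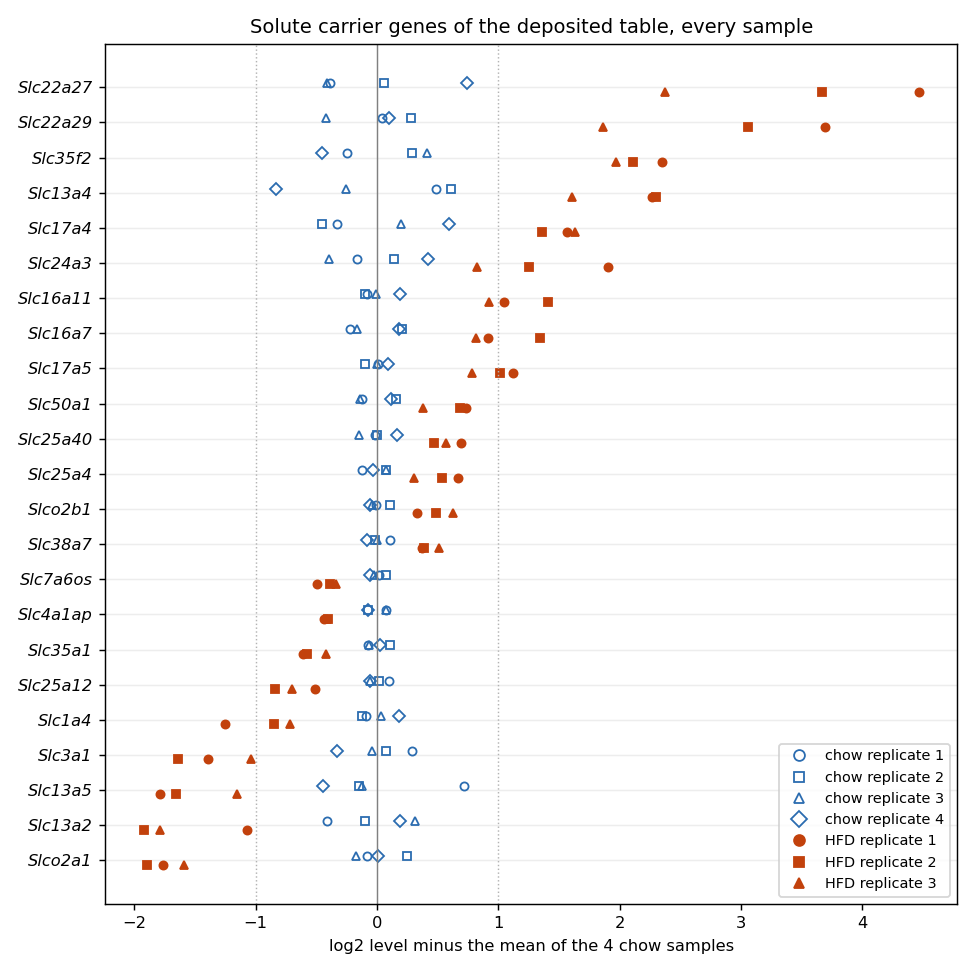
Level of 23 of the 24 genes in every sample, as the log2 level minus the mean of the 4 chow samples (x axis), with chow as open blue and HFD as filled orange symbols and dotted lines at a 2-fold difference. Slc22a27 and Slc22a29 lie farthest to the right, with HFD replicate 3 nearest to chow, and Slco2a1 lies lowest, at a mean of -1.75.

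The organic ion group had 5 of its 50 genes in the table (10%, beside 5.65% of all named genes), 4 higher and 1 lower. Shares of such small groups were not tested, here or below. The pair with the largest increases, Slc22a27 and Slc22a29, belongs to a rodent cluster of organic anion transporter genes on chromosome 19, where Slc22a28 is the protein-coding gene between them. Slc22a27 had levels of 4.87, 5.32, 4.85 and 6.00 in chow replicates 1 to 4 and 9.73, 8.93 and 7.64 in HFD replicates 1 to 3. The HFD samples were spread over more than 2 units, with replicate 1 highest and replicate 3 lowest, and the lowest of them lay 1.63 above the highest chow sample. The means were 5.26 ± 0.54 (SD, n = 4) and 8.76 ± 1.06 (SD, n = 3), a difference of 3.50 ± 0.60 (SE) or 11.3-fold. Its chow replicates 1 and 3 lay below 4.93, the lowest table value of any probe well above background on HFD replicate 1, which stands in for the unknown chow floor. With these values raised to that floor the fold was 11.1.

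Slc22a29 showed the same order of HFD samples, with 5.01, 5.25, 4.55 and 5.07 in chow and 8.67, 8.03 and 6.84 in HFD. Its means were 4.97 ± 0.30 (SD, n = 4) and 7.85 ± 0.93 (SD, n = 3), a difference of 2.87 ± 0.48 (SE) or 7.33-fold, and 6.87-fold with the 1 chow value under the floor raised to it. The HFD scanner signals, as log2 relative to the 75th percentile of the array, were 0.04, -0.75 and -2.03 for Slc22a27 and -0.98, -1.64 and -2.82 for Slc22a29. The HFD columns derive from these files, so this is the same measurement on another scale. Probe letters were not used here, and whether the 2 probes also bind RNA of neighbouring family members was not tested.

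Promoters of this pair are printed because it had the largest increases, together with that of Slco2a1, the gene with the largest decrease. The promoter of Slc1a4, an amino acid exchanger that was lower, though not the amino acid member with the largest decrease, is printed too. Each is the RefSeq window of build GRCm38.p6 from 250 bases before to 50 after the gene's start, 5′ to 3′ on the gene's strand. Capitals mark matches, on both strands, to 3 motifs. The first is TATAAA, bound by the general transcription machinery. The next is CCAAT, bound by the factor NF-Y, and the last is TGATGNAA, the core of the amino acid response element. The windows are chr19:7965978-7966277 (minus strand) for Slc22a27, chr19:8218851-8219150 (minus) for Slc22a29, chr9:103008237-103008536 (plus) for Slco2a1 and chr11:20332664-20332963 (minus) for Slc1a4.
Slc22a27: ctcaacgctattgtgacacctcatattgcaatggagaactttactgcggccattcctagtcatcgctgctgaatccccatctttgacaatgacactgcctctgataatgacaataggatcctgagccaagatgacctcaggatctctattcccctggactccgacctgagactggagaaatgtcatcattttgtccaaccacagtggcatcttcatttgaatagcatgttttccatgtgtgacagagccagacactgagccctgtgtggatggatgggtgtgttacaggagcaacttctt
Slc22a29: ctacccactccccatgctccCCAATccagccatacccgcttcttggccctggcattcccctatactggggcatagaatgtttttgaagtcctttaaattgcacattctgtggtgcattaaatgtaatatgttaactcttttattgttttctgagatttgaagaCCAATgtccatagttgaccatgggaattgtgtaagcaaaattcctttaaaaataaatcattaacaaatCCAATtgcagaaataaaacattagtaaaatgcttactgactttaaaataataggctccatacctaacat
Slco2a1: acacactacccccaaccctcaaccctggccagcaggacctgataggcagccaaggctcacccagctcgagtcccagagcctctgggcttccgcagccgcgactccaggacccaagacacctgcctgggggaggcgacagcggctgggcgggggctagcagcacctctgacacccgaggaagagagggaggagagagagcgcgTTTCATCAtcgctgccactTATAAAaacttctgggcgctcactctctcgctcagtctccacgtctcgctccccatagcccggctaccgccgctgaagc
Slc1a4: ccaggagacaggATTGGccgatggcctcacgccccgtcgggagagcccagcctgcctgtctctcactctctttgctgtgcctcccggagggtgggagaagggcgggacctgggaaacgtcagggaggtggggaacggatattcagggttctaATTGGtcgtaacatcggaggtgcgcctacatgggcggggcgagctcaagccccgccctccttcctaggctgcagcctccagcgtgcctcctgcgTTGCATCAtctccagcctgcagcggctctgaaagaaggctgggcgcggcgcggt

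The Slc22a27 window held none of these motifs and the Slc22a29 window held 3 CCAAT matches. In a global alignment the pair of windows was 47.9% identical, beside a median of 45.9% over the 295 pairs of windows of different genes described here. Promoter windows were found for 21 of the 24 genes, 25 windows in all. TATAAA was in 4 of them (13.6% of all 32851 windows of the table), those of Slc13a2, Slc35a1, Slc3a1 and Slco2a1. The Slco2a1 match began 29 bases before the start and the Slc35a1 match 159 bases before it. Whether a motif goes with the direction of the diet difference was not tested. CCAAT was in 9 windows (37.4% of all windows) and TGATGNAA in 3 (3.97% of all windows), those of Slc1a4, Slc50a1 and Slco2a1. The window of Slc3a1, the amino acid member with the largest decrease, held no TGATGNAA match, and Slc50a1 was higher in HFD. The nuclear receptor elements DR1 and DR4, direct repeats of AGGTCA with spacers of 1 and 4 bases searched on both strands, were in none of the 25 windows and in 0.0396% and 0.0152% of all windows. A match shows only that these letters are present.

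Slco2a1, the prostaglandin transporter, was the member with the largest decrease. Its levels were 12.16, 12.49, 12.07 and 12.25 in chow and 10.48, 10.35 and 10.65 in HFD. The samples of each diet lay close together, and the groups were 1.42 apart at their nearest. The difference was -1.75 ± 0.13 (SE), 3.36-fold lower. Its family member Slco2b1, an uptake transporter of organic anions, differed the other way by 0.48 ± 0.09 (SE), with 10.98 to 11.15 in chow and 11.37 to 11.67 in HFD.

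**Figure D2:**
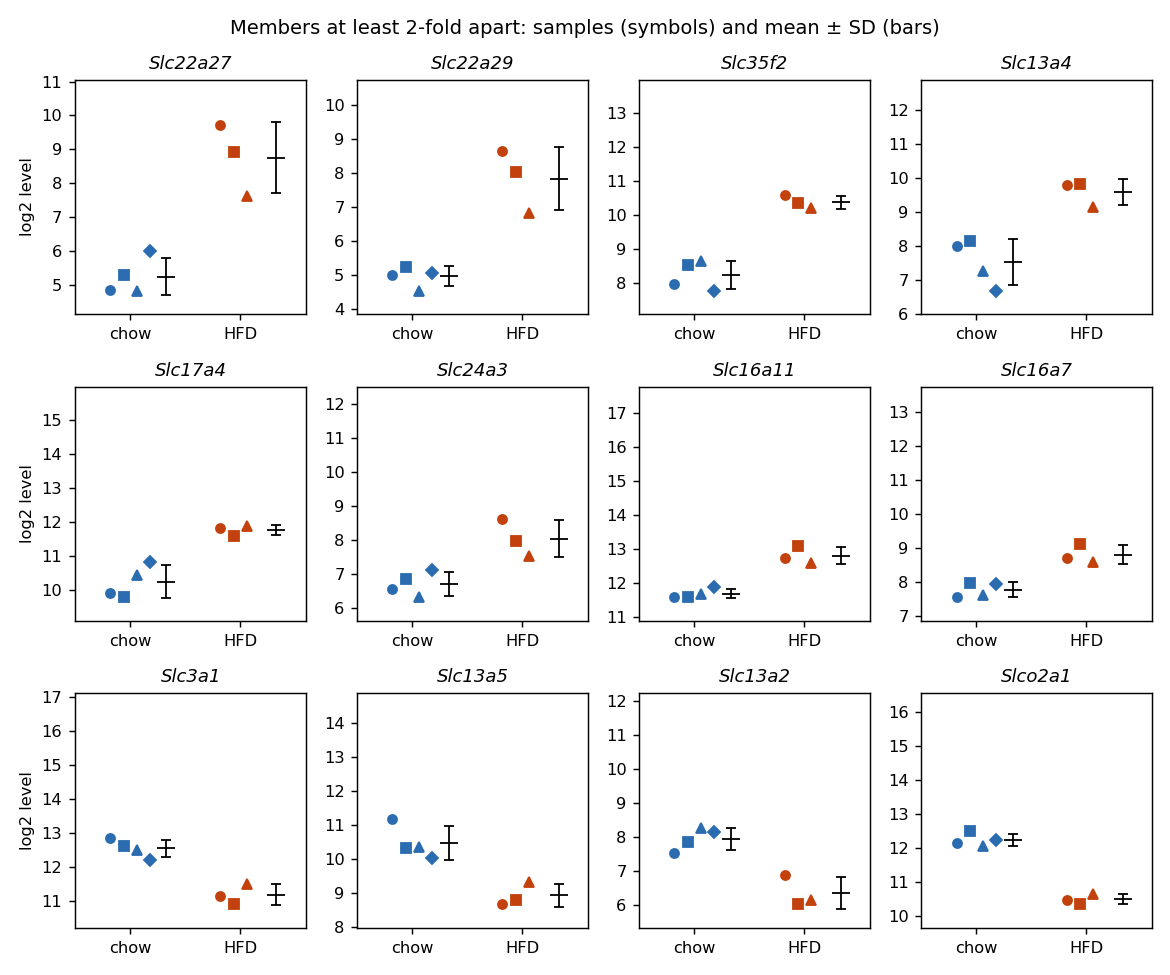
Log2 levels (y axis) of the 12 members at least 2-fold apart, with 1 symbol per sample and the mean ± SD of each diet (4 chow samples and 3 HFD samples) beside them; every panel spans the same range of log2 units. Slc22a27 has the widest HFD spread, from 7.64 to 9.73, and Slco2a1 one of the narrowest, from 10.35 to 10.65.

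Carboxylate and sulfate carriers had 5 of 29 genes in the table (17.2%, beside 5.65% of all named genes), and the Slc13 family had 3 of its 6. Slc13a5, the sodium-citrate cotransporter that brings citrate from blood into hepatocytes, and Slc13a2, the sodium-dicarboxylate cotransporter for succinate and related acids, were both lower, while Slc13a4, a sodium-sulfate cotransporter, was higher. Slc13a5 had 11.17, 10.30, 10.33 and 10.01 in chow and 8.66, 8.80 and 9.30 in HFD. Chow replicate 1 was its highest sample, and the difference was -1.54 ± 0.34 (SE), 2.90-fold lower. A further probe of Slc13a5 in the table gave -1.58 ± 0.32 (SE), in the same direction.

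Slc13a2 had 7.53, 7.84, 8.25 and 8.13 in chow and 6.87, 6.02 and 6.15 in HFD. Here HFD replicate 1 was the sample nearest to chow, unlike in most members, and the difference was -1.59 ± 0.29 (SE) or 3.01-fold lower. Slc13a4 had 8.01, 8.13, 7.26 and 6.69 in chow and 9.79, 9.83 and 9.13 in HFD. The chow samples of Slc13a4 were the most spread of any member, with an SD of 0.68, and the difference was 2.06 ± 0.44 (SE) or 4.17-fold.

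The monocarboxylate family (Slc16) had 2 of 14 genes in the table, both higher, while 3.08% of all named genes were listed as higher. Slc16a11, a family member linked to pyruvate transport, had 11.60, 11.58, 11.67 and 11.87 in chow and 12.73, 13.09 and 12.60 in HFD, a difference of 1.13 ± 0.15 (SE) or 2.18-fold. HFD replicate 2 was its highest sample, and without it the difference was 0.98, just under 2-fold. Slc16a7 (MCT2), which carries lactate, pyruvate and ketone bodies, had 7.55, 7.99, 7.62 and 7.96 in chow and 8.70, 9.12 and 8.59 in HFD. Its difference of 1.03 ± 0.19 (SE), 2.04-fold, was 0.87 without HFD replicate 2, the highest sample here too, and 0.95 or 0.97 without chow replicate 1 or 3. Slc16a13, the neighbour of Slc16a11, was well above background on all 3 HFD arrays and was not listed.

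Carriers of inorganic ions and phosphate had 3 of 54 genes in the table (5.56%, near the 5.65% of all named genes), all higher. Of these 2 belong to the Slc17 family. Groups were assigned by family, so Slc17a5, a sialic acid exporter described below, was counted here. Slc17a4, a family member that transports phosphate and organic anions, had 9.92, 9.79, 10.45 and 10.84 in chow and 11.82, 11.61 and 11.88 in HFD. Its HFD samples were within 0.27 of each other, the chow samples were not, and the difference was 1.52 ± 0.30 (SE) or 2.87-fold. Its neighbour Slc17a1 and the family members Slc17a2 and Slc17a3 were well above background on all 3 HFD arrays and were not listed. Slc24a3, a sodium-calcium exchanger that also moves potassium, had 6.54, 6.85, 6.31 and 7.13 in chow and 8.61, 7.96 and 7.54 in HFD. The HFD samples followed the order seen for Slc22a27, and the difference was 1.33 ± 0.34 (SE), 2.51-fold.

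A carrier of sialic acid and a carrier of its activated form were both listed, in opposite directions. Slc17a5, sialin, which exports sialic acid from lysosomes, had 10.16 to 10.35 in chow and 11.04 to 11.38 in HFD, a difference of 0.97 ± 0.10 (SE) or 1.96-fold. Slc35a1, which brings CMP-sialic acid into the Golgi for glycoprotein synthesis, had 9.58 to 9.77 in chow and 9.04 to 9.23 in HFD, a difference of -0.54 ± 0.07 (SE). Slc35f2, a member of the same family as Slc35a1, was the carrier with the largest increase outside Slc22. Its levels were 7.996, 8.528, 8.657 and 7.790 in chow and 10.59, 10.35 and 10.21 in HFD, 1.55 apart at their nearest, and the difference was 2.14 ± 0.26 (SE) or 4.41-fold. The group of nucleoside and nucleotide sugar carriers had 2 of 35 genes in the table (5.71%, near the 5.65% of all named genes).

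Amino acid and peptide carriers formed the group with the most genes on the array, 69. Of these, 3 were listed (4.35%, beside 5.65% of all named genes). The 2 plasma membrane members were lower. Slc3a1, the heavy subunit of the exchanger for cystine and dibasic amino acids, had 12.83, 12.61, 12.50 and 12.21 in chow and 11.14, 10.90 and 11.50 in HFD, a difference of -1.36 ± 0.21 (SE) or 2.56-fold lower. Its light subunit partner Slc7a9 was not well above background on any HFD array. Slc1a4 (ASCT1), an exchanger of alanine, serine and other neutral amino acids, had 11.83, 11.80, 11.95 and 12.10 in chow and 10.67, 11.07 and 11.20 in HFD. HFD replicate 1 was its lowest sample, and the difference was -0.94 ± 0.16 (SE), 1.92-fold lower. Slc38a7, which exports glutamine from lysosomes, differed the other way by 0.42 ± 0.06 (SE), with 8.54 to 8.74 in chow and 9.002 to 9.141 in HFD.

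Of 46 mitochondrial carriers 3 were listed (6.52%, near the share of all named genes), all less than 2-fold apart, and 39 of the 46 were well above background on all 3 HFD arrays. Slc25a12 (aralar), an aspartate-glutamate carrier of the malate-aspartate shuttle, had 11.14, 11.06, 10.99 and 10.99 in chow and 10.53, 10.20 and 10.34 in HFD. The difference was -0.69 ± 0.09 (SE), 1.61-fold lower. Slc25a13, the main isoform of this carrier in liver, was well above background on all 3 HFD arrays and was not listed. Slc25a4, an ADP/ATP carrier, was higher by 0.50 ± 0.11 (SE), and Slc25a40, linked to glutathione import into mitochondria, by 0.57 ± 0.09 (SE). Slc25a5, another ADP/ATP carrier, was well above background on all 3 HFD arrays and not listed.

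The sugar group had 1 of 33 genes in the table (3.03%, beside 5.65% of all named genes). Slc50a1, a sugar transporter of the SWEET family, had 10.54, 10.82, 10.53 and 10.78 in chow and 11.40, 11.35 and 11.05 in HFD, a difference of 0.60 ± 0.13 (SE) or 1.51-fold. The lowest HFD sample lay 0.23 above the highest chow sample, close to the smallest such gap of any member, 0.22 for Slco2b1. The genes named after carriers were both lower. Slc4a1ap, an adaptor protein gene, had 11.07, 10.92, 11.07 and 10.92 in chow and 10.56, 10.59 and 10.58 in HFD, a difference of -0.42 ± 0.05 (SE). Slc7a6os, which lies on the opposite strand beside Slc7a6, had 10.19 to 10.32 in chow and 9.75 to 9.91 in HFD.

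**Figure D3:**
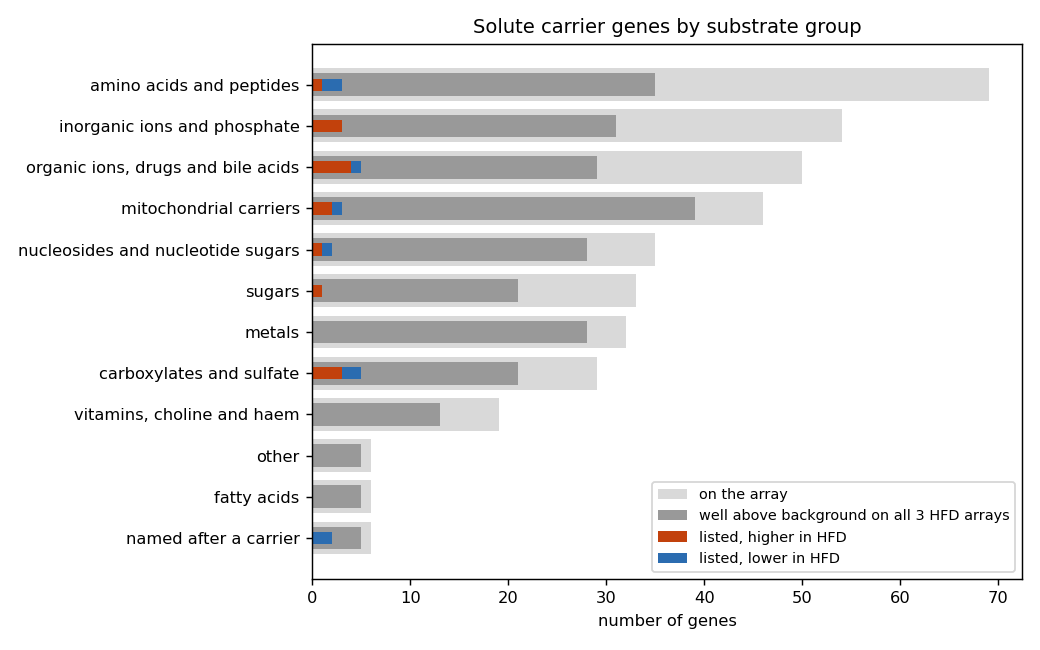
Number of solute carrier genes (x axis) in each substrate group that were on the array (light grey), well above background on all 3 HFD arrays (dark grey), and listed as higher (orange) or lower (blue) in HFD. Amino acid and peptide carriers have 69 genes on the array and 3 listed, and metal carriers have 32 and none listed. Of all named genes on the array 5.65% were listed.

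On the array 260 of the 385 solute carrier genes were well above background on all 3 HFD arrays, and 236 of these (90.8%) were not listed, beside 91.5% of all named genes that were well above background there. No gene was listed among 32 metal carriers, 19 carriers of vitamins, choline and haem, or 6 fatty acid transport proteins. Of these, 28, 13 and 5 were well above background on all 3 HFD arrays. Only 5.65% of all named genes on the array were listed, so an empty group of this size is not taken as a trait. Carriers with well known roles in hepatocytes were among the unlisted. Slc2a2 (glucose), Slc10a1 (bile acids), Slco1b2 and Slco1a1 (organic anions), Slc27a2 and Slc27a5 (fatty acids), Slc22a7 (organic anions) and Slc25a20 (acylcarnitines) were each well above background on all 3 HFD arrays. Whether an unlisted gene differed between diets was not analysed here.

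The HFD samples were not alike. HFD replicate 3 was the HFD sample nearest to the chow mean for 16 of the 24 genes, 10 higher and 6 lower, beside 66.7% of all named genes of the table. HFD replicate 1 was nearest for 5 genes (15.1% of named genes) and HFD replicate 2 for 3 (18.3%). The summed macrophage and matrix markers had the same order, with replicate 1 farthest from chow and replicate 3 nearest. Measures of the arrays also ran in replicate order. Column medians were 9.845, 9.783 and 9.68 in HFD replicates 1 to 3, and 57.0%, 62.3% and 66.8% of spots were well above background. What lies behind the order was not tested. Of 15 macrophage markers with a probe, all 15 passed the background call in every HFD file and 3 were in the table (Itgam, Ccr2 and Gpnmb), all higher, and their summed level was 11.36 to 11.41 in chow and 12.54, 12.26 and 12.09 in HFD replicates 1 to 3. Of 11 stellate cell and matrix markers all passed it and 4 were listed (Col1a2, Col3a1, Dcn and Lum), all higher. Their summed level was 15.39 to 15.63 in chow and 16.57, 16.30 and 15.94 in HFD. Of all named genes on the array 5.65% were listed, 3.08% as higher. The sums add levels before taking log2, so the brightest gene weighs most. In the macrophage sum it was Itgam, with a chow mean of 11.37 against 5.12 for Ccr2 and 2.54 for Gpnmb. In the matrix sum it was Dcn, with 15.38 against 11.36 for Col1a2, the next brightest. The order with HFD replicate 1 farthest from chow and replicate 3 nearest was shared by 11 of the 24 genes, beside 43.9% of all named genes of the table. They were 7 higher genes, Slc22a27, Slc22a29, Slc35f2, Slc24a3, Slc17a5, Slc50a1 and Slc25a4, and 4 lower ones, Slc13a5, Slc1a4, Slc35a1 and Slc7a6os.

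The hepatocyte markers in the table, Cps1 and Serpina1a, 2 of 20, were lower, while 2.57% of all named genes were listed as lower. Their summed level was 18.46 to 18.59 in chow and 17.93, 17.94 and 18.10 in HFD replicates 1 to 3. Replicate 3 was nearest to chow, and replicates 1 and 2 were nearly level. Serpina1a, the higher of the 2 genes, read 17.89, 17.87 and 18.03 in HFD, and Cps1 read 12.67, 13.46 and 13.61. The part of these cell markers in the carrier differences was not tested. In bulk tissue, fewer cells of a type and less RNA per cell cannot be told apart. No cholangiocyte, endothelial, lymphocyte or adipose marker was in the table, and Adipoq and Lep were not well above background on any HFD array. Of 5 blood markers Pf4 was in the table, with 8.763 to 9.097 in chow and 9.41 to 10.47 in HFD. Of 9 pancreas, kidney and gut markers Fabp2 was, with 14.12 to 14.76 in chow and 16.21 to 16.35 in HFD, while Prss1, Cpa1, Umod and Nphs1 were not well above background on any HFD array.

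**Figure D4:**
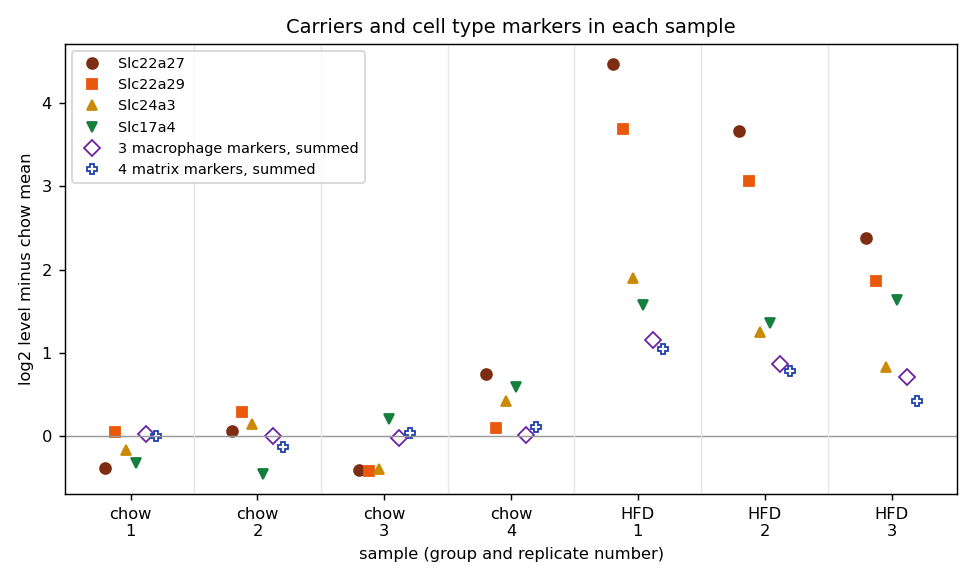
Log2 level minus the chow mean (y axis) in each of the 7 samples (x axis) for 4 carriers (filled symbols) and for the summed levels of the 3 macrophage and 4 matrix markers of the table (open symbols). The HFD samples of Slc22a27 run from 9.73 in replicate 1 to 7.64 in replicate 3 and the marker sums have the same order, while Slc17a4 stays between 11.61 and 11.88.

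In the scanner files labelled chow, 21 of the 24 genes were well above background on all 4 arrays. The remaining 3, Slc22a27, Slc22a29 and Slco2b1, were not well above background on any of them. The table, by contrast, gives Slco2b1 chow levels of 10.98 to 11.15. No diet difference was drawn from these files, since they did not follow the table's chow columns and lacked signal for 7 of 20 hepatocyte markers.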

How the data were processed

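Cy3-labelled liver RNA was hybridised to Agilent mouse arrays with 39429 probes, 1 sample per array. Scanner files hold spot intensity values, background-subtracted per the file headers, which name Feature Extraction 10.7.3.1. Version 9.1 is named in the submitters' processing notes. The deposited table by the authors holds log2 values of 1615 probes, with normalization and selection not given in the sources used here. No scanner values could be found behind its chow columns, whose scale therefore stays unknown.

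Probes were named by RefSeq accession through RefSeq genes of GRCm38.p6 (names and gene order only), which named 27234 probes and 1288 of the table's rows. The probe with the highest mean stood for a gene with several. Group means, SDs, differences and pooled standard errors were computed directly from the table's values, a calculation checked on simulated data. The differences and standard errors equalled those of lmFit in limma 3.58.1 (R 4.3.3), run on all rows of the table. No p-value is given. Scanner levels are log2 of the processed signal minus the array's 75th percentile, without outlier spots, and no spot was saturated. By rule members are named, 23 of the 24 here (the other 1 is counted but not reported here), with every sample's value for the 6 higher and 6 lower with the largest differences and for the largest in each substrate group. Slc16a7 and Slc16a11 were added after their values were seen. The members and lists were chosen with earlier results of these data known.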

Additional observations from a re-analysis of the deposited data

How the results depend on the processing

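The 24 differences kept their direction under column centring and quantile normalization. Under centring this was fixed in advance, since its shift of -0.21 was smaller in size than any of the 24 differences. The mean of a gene's probes, values raised to the floor, group medians, the replicate block and leaving out each sample gave no reversal either, but direction is no measure of stability there, since genes were listed for groups that do not overlap. Leaving out 1 sample moved no gene's fold by more than 1.5 times, but Slc22a27 came close. Its fold moved 1.48 times, to 16.7-fold, without HFD replicate 3, and its difference fell to 3.02 without HFD replicate 1. Slc22a29 moved 1.42 times, to 10.4-fold, without HFD replicate 3. Centring columns on their medians moved all differences by -0.21, and quantile normalization moved them by a median of -0.16. Genes at least 2-fold higher then numbered 6 and 7, against 8, and genes at least 2-fold lower 5, against 4. Slc16a11, Slc16a7, Slc17a5 and Slc1a4 changed sides of the 2-fold line under at least 2 alternatives each, among them Slc17a5 (1.06) and Slc1a4 (-1.05) without HFD replicate 3. Genes at least 2-fold apart numbered 10 to 14 with 1 sample left out. A 1.5-fold line, chosen after seeing the data, gave 17. Diets share replicate numbers 1 to 3, but deviations of same-numbered samples correlated at -0.10, 0.13 and 0.01 across rows, so these numbers were not taken to pair the samples, and the replicate block, whose differences equal those without chow replicate 4, gave 13 genes at least 2-fold apart. Solute carriers well above background in HFD numbered 260 to 297 over the detection rules and left-out arrays. Naming genes by a gene name column was not run, as the scanner files used here have none. HFD scanner levels moved by more than their SD for 9 of 24 genes with normexp, and for 24 with the percentile taken over detected probes, which shifts every level on an array alike.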

Other observations

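Second probes add a view that the table does not. Slc17a4, Slc17a5, Slc4a1ap, Slc50a1 and Slco2b1 each had a further probe on the array that was well above background on all 3 HFD arrays and was not in the table. For Slco2b1 that probe read 3.58, 3.84 and 3.97 in HFD replicates 1 to 3, as log2 relative to the 75th percentile of the array, and the probe in the table read 1.62, 1.81 and 1.98. For Slc17a4 the further probe read -2.23, -2.68 and -2.29. Levels of different probes cannot be set against each other. Chow values of these probes were not analysed here, so whether they differed between diets as the listed probes did is not known. Slc22a28, which lies between Slc22a27 and Slc22a29, had 2 probes well above background on all 3 HFD arrays and was not listed, while Slc22a26, on the other side of Slc22a27, was not well above background on any HFD array.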
